A study of Mus musculus with 11 samples.

Results

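Moderate cachexia was compared with control in the mouse quadriceps, the large muscle at the front of the thigh. The question was which transcripts of the muscle differ at this stage of tumor-driven wasting. All mice of the series were female CD2F1, a hybrid of inbred strains with an intact immune system, and were 5 to 6 weeks old. The moderate group (n = 3) had received cells of C26, a mouse colon adenocarcinoma line that is transplanted and so stands for a single tumor, and muscle was taken at day 19 with a weight loss of about 10%. The control group (n = 4) carried no tumor and had received saline. A severe group of the same series (n = 4, the same tumor, day 24, a loss of about 15%) is used here only where the stages are set against each other. RNA of each mouse was measured on its own Illumina MouseWG-6 v2.0 array. Probes were chosen by a rule that used no difference between the groups: a detection p under 0.01 on every control array or on every moderate array. This held for 18366 of the 45281 probes, which gave 9925 genes of the 10134 tested in the series. Of these genes, 8996 were detected on every array of both groups. A further 373 passed only through the moderate arrays and 556 only through the controls, and such genes could enter because they were high in 1 group.

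Muscle wasting in cachexia runs through a known set of steps. FOXO transcription factors, held in check by insulin and IGF-1 signaling through Akt, turn on muscle ubiquitin ligases that mark contractile proteins for the proteasome, and they turn on autophagy as well. Glucocorticoids and cytokines of the IL-6 family act on the same fibers, the latter through JAK kinases, STAT3 and C/EBP factors, which in liver drive the acute phase response. Oxidative metabolism of the fiber depends on PGC-1 coactivators and the estrogen-related receptors they work with.

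The labelled tissue was borne out by its markers. All 18 muscle fiber markers tested were detected, and 1 of them changed. Probes detected per array numbered 18626 to 20006 in the controls and 18681 to 19277 in the moderate group. Pearson's r over the detected probes ran from 0.985 to 0.992 among controls, from 0.981 to 0.986 among moderate mice and from 0.924 to 0.969 between the groups. Gapdh, a glycolytic enzyme used as a reference, had a log2 fold change of -0.15 (standard error 0.10, adjusted p = 0.248). Values below are log2 signals, and mice are named by the numbers of the deposited columns. The background correction leaves an offset on low signals, so that folds of dim genes are understated. In bulk muscle a smaller number of cells of a type and less RNA per cell cannot be told apart.

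Gene expression differed widely between moderate and control muscle. Of the 9925 genes, 1907 (19.2%) rose and 2246 (22.6%) fell at an adjusted p under 0.05 from limma, together 41.8%, and 5772 did not pass. The median fold was 1.63 among genes that rose and 1.61 among genes that fell. At least 2-fold, 475 genes (4.79%) rose and 488 (4.92%) fell, and at least 4-fold, 85 rose and 68 fell. Control and moderate values did not overlap for 4833 genes (48.7%). List counts below are also given with a mouse left out, and such fits can call fewer genes in every list. Over all 9925 genes, 1205 rose and 1375 fell without moderate mouse 5, and 1432 rose and 1628 fell without mouse 12. The largest rises among named genes were those of Trim63, Saa1, Cxcl13, Ddit4, Depp1 and Fga, and the largest falls those of Ucp1, Nmrk2, Lrrc38, Aqp4, Nrep and Ky. By known role, Trim63 is a muscle ubiquitin ligase, and Saa1 and Fga encode acute phase proteins. Ddit4 acts on mTORC1 and Depp1 is a FOXO target. On the falling side Ucp1 serves thermogenesis, Nmrk2 NAD synthesis, Aqp4 is a membrane channel and Ky belongs to the sarcomere. Such single genes do not stand for their whole lists, whose counts are given below. Cxcl13 encodes a chemokine for B cells. Its log2 signal was 5.18, 7.73, 7.13 and 5.16 in the controls and 10.49, 8.53 and 11.13 in the moderate mice, with controls 2 and 3 nearer the moderate range than controls 1 and 4. Its log2 fold change was 3.75 (standard error 0.68, adjusted p = 0.00119).

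**Figure D1:**
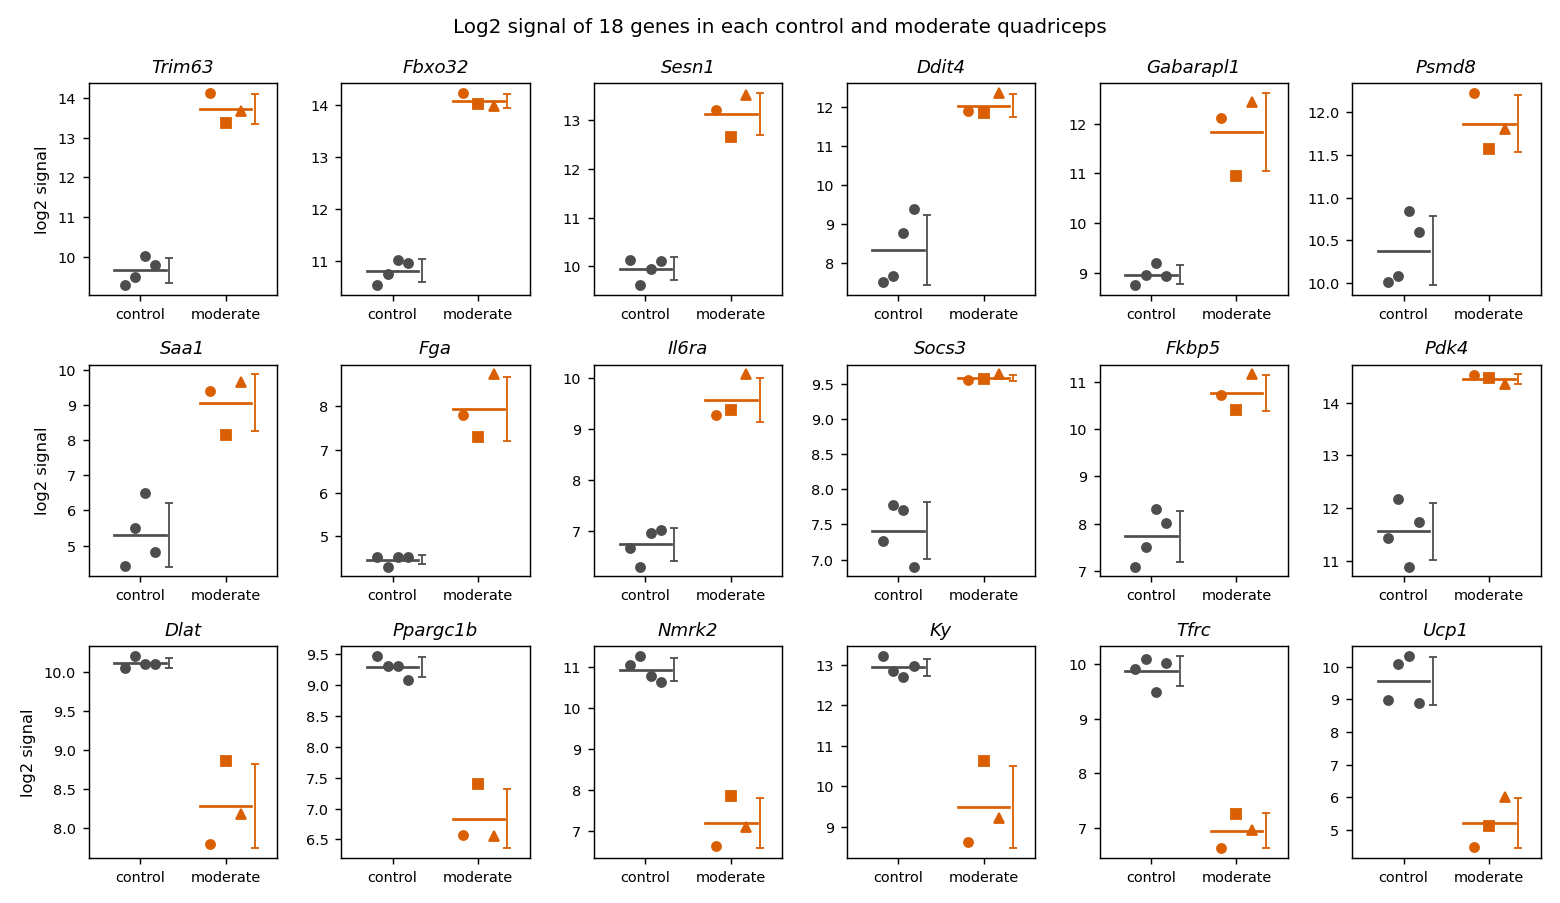
Log2 signal (y axes, 1 scale per gene) of 18 genes in each control (grey, n = 4) and moderate quadriceps (orange, n = 3, circle for mouse 5, square for mouse 9, triangle for mouse 12), with the mean as a line and the SD as a bar. The genes were picked with their values known, many for large changes without overlap, so the lack of overlap in all 18 panels is no result. Over all 9925 genes the groups did not overlap in 48.7%. Mouse 9 is often the moderate mouse nearest the controls.

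The ubiquitin ligases of muscle atrophy led the rises. Trim63, also called MuRF1, a ligase for myosin and other thick-filament proteins, had 9.30, 9.51, 10.03 and 9.81 in the controls and 14.13, 13.36 and 13.67 in moderate mice 5, 9 and 12. Every moderate mouse lay far above every control, and the difference was 16.7-fold (log2 fold change 4.06, standard error 0.30, adjusted p = 3.82e-06 from limma). Fbxo32, or atrogin-1, the F-box protein of an SCF ligase, had 10.55, 10.75, 11.02 and 10.97 in the controls and 14.23, 14.01 and 13.97 in the moderate mice. It rose 9.48-fold (log2 fold change 3.25, standard error 0.21, adjusted p = 1.76e-06), and its moderate mice were close to each other. Of the 15 ligases of the list that were tested, 9 rose and 1 fell, against 19.2% and 22.6% of all genes, with a median log2 fold change of 0.67. Fbxo30, known as MUSA1 and restrained by BMP signaling, rose by 1.77, and Klhl38, a kelch adaptor of cullin ligases, by 1.80. Fbxo31, an F-box protein with a role in the cell cycle, rose by 1.21. Fbxo21 was the one that fell (log2 fold change -0.74, adjusted p = 0.00821).

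Most FOXO factors and genes known to follow them rose. Of 15 tested, 12 rose and 2 fell (1 fell without mouse 5), with a median of 1.94, which was 2.18, 1.65 and 1.99 in mice 5, 9 and 12. Foxo1 itself had 7.0 to 7.50 in the controls and 9.50, 9.24 and 9.93 in the moderate mice, a log2 fold change of 2.31 (standard error 0.20, adjusted p = 1.09e-05). Foxo3 rose by 1.30 and was detected on 1 of 4 control arrays. Sesn1, a sestrin that restrains mTORC1 and is induced by FOXO and p53, had 10.14, 9.62, 9.94 and 10.10 in the controls and 13.21, 12.64 and 13.50 in the moderate mice. It rose 8.96-fold (adjusted p = 6.05e-06), with both groups tight. Depp1, a FOXO target found at peroxisomes, rose by 3.63 from controls that were themselves spread over 7.90 to 9.56. Cdkn1a, the cell cycle inhibitor p21, rose by 3.04, and Gadd45a, a stress protein that remodels chromatin in denervated muscle, by 1.94. Bcl6, a transcriptional repressor, fell by 1.49 (adjusted p = 2.33e-05).

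The upstream sequence of Trim63 is shown because it holds letters bound by both factor families named above, side by side. It is taken from RefSeq (GRCm38.p6, plus strand, chr4:134314895-134314957) and runs from base 225 to base 163 before the gene's start, 5′ to 3′. The capitals mark TGTTCT, a short site of steroid receptors, at bases 200 to 195, and directly after it TGTTTAC, the reverse of the FOXO-type motif GTAAACA, at bases 194 to 188.
Trim63: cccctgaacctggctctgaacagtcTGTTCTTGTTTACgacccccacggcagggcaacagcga
Searched on both strands over the 250 bases upstream, GTAAACA was in 3.17% and TGTTCT in 16.1% of 32851 RefSeq promoters. Among the ligases that rose, 7 of 9 had a promoter entry, of which Mdm2 and Trim63 held GTAAACA (the rise of Mdm2 lost its call without mouse 9 or 12, adjusted p = 0.0595 and 0.0557), and among the FOXO-related genes that rose it was in 1 of 11, Txnip. TGTTCT was upstream of 2 of the 7 ligases (Trim54 and Trim63), of 0 of the 11 FOXO-related genes and of 2 of the 15 glucocorticoid-responsive genes that rose and had an entry (Fam107a and Sult1a1). A match is a description of these letters and not a binding site.

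Autophagy and proteasome genes rose alongside. In autophagy, 13 of 28 genes rose and 1 fell, with a median log2 fold change of 0.27. Gabarapl1, an LC3-like protein of the autophagosome membrane, had 8.76, 8.96, 9.21 and 8.94 in the controls and 12.11, 10.94 and 12.44 in the moderate mice, so that mouse 9 was the lowest of the moderate mice though well above the controls (log2 fold change 2.86, standard error 0.35, adjusted p = 0.000105). Ulk1, the kinase that starts autophagy, rose by 2.14, Bnip3, a receptor for mitophagy, by 1.79, Sqstm1, the cargo adaptor p62, by 1.12 and Map1lc3b, or LC3B, by 1.01. Ulk2, a relative of Ulk1, fell by 0.73 (adjusted p = 0.00473). Of 21 lysosomal genes 8 rose and none fell. Ctsl, the protease cathepsin L, rose by 2.11 from controls that lay between 5.26 and 5.44, and Lamp2, a membrane protein of the lysosome, by 0.50.

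In the constitutive proteasome, 22 of 28 subunits rose and none fell, and the median rise was 0.65, so that many subunits shifted by a small amount. Psmd8, a lid subunit, had 10.01, 10.08, 10.84 and 10.60 in the controls and 12.23, 11.57 and 11.80 in the moderate mice. It rose by 1.48 (standard error 0.24, adjusted p = 0.00066). Psma7, an alpha-ring subunit, rose by 1.26 and Psmd11, another lid subunit, by 1.20. Without moderate mouse 5, 14 of the 28 rose, while the rises over all genes went from 1907 to 1205.

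Single brakes on protein synthesis rose strongly, while most of the tested genes that restrain mTORC1 did not pass. Ddit4, also called REDD1, which activates the TSC complex against mTORC1, had 7.51, 7.65, 8.77 and 9.37 in the controls and 11.88, 11.83 and 12.36 in the moderate mice. The controls were spread widely, controls 3 and 4 being the higher ones, and the moderate mice lay close together above all of them (log2 fold change 3.70, standard error 0.44, adjusted p = 8.74e-05). Eif4ebp1, the repressor that holds the cap-binding factor eIF4E, rose by 2.19 (adjusted p = 6.36e-05). Of 17 genes that restrain mTORC1, 5 rose (29.4%, against 19.2% of all genes) and 2 fell, with a median of 0.18. Among 17 genes of the ATF4 stress response 7 rose (41.2%) and 2 fell, with a median of 0.18 as well. Neither pair of falls was stable, with 0 left without control mouse 2, control mouse 4 or moderate mouse 5 in the first list, and 0 without control mouse 1 or 3 or moderate mouse 9 or 12 in the second. Ppp1r15a, or GADD34, which returns the initiation factor eIF2 to its active form, rose by 2.24, Chac1, a glutathione-degrading enzyme, by 1.61, and Atf4 itself by 0.74. The insulin and IGF branch was mixed. Irs2, an adaptor of the insulin receptor and a FOXO target, rose by 2.63, Akt2, the insulin-responsive Akt kinase, by 1.76 and Igf1r, the IGF-1 receptor, by 1.35. Igfbp5, an IGF-binding protein abundant in muscle, fell by 2.06 (adjusted p = 3.24e-05).

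Acute phase and plasma protein transcripts rose in muscle. Of 22 tested 16 rose (11 without moderate mouse 5 or 12) and none fell, with a median of 1.70. Only 7 of the 22 were detected on every control and moderate array, and 4 of those rose, so that many members entered the test because they were high in the moderate mice. Saa1, serum amyloid A1, had 4.43, 5.49, 6.5 and 4.81 in the controls and 9.41, 8.14 and 9.65 in the moderate mice. Controls 2 and 3 were the higher controls, as they were for Cxcl13, and no control reached the moderate range (log2 fold change 3.76, standard error 0.44, adjusted p = 8.58e-05). Fga, the fibrinogen alpha chain, was not well above background on any control array (4.3 to 4.52) and had 7.80, 7.29 and 8.74 in the moderate mice, which was at least 8.51-fold higher (adjusted p = 0.00144). Serpina3n, a protease inhibitor that rises in atrophying muscle, had 8.27, 9.68, 9.99 and 7.65 in the controls and 12.48, 11.38 and 12.88 in the moderate mice, a log2 fold change of 3.35 (adjusted p = 0.000391). Itih4, an inter-alpha-trypsin inhibitor heavy chain, rose by 2.69 and Fgg, the fibrinogen gamma chain, by 2.07. Itih3, a related heavy chain, was at least 5.23-fold and Hpx, or hemopexin, which binds heme, at least 3.82-fold higher, each undetected on all controls. Lcn2, an iron-sequestering lipocalin, rose by 2.91, but control mouse 3 (8.15) was above moderate mouse 9 (7.29). Its adjusted p went from 0.0121 to 0.0551 without moderate mouse 5 and to 0.0691 without mouse 12. Hp, or haptoglobin, rose by 2.27, with an adjusted p of 0.012 that became 0.0712 without mouse 5. Of 14 markers listed as liver-only, 11 did not pass the detection rule, Alb, Apob and Cyp3a11 among them. A gene that did not pass it could still give signal on some arrays. The 3 that were tested summed to linear signals of 2264 to 3664 in the controls and 2162 to 4666 in the moderate mice. Ahsg was the one that rose (adjusted p = 0.0259 from limma). Ahsg was dim, with a control mean of 4.77 on the log2 scale. Most of the sum thus came from the other 2, which were already bright in control muscle and did not pass. Ahsg lost its call without control mouse 1, 2 or 3 (0.0609, 0.0685 and 0.0649) or moderate mouse 5 or 12 (0.0872 and 0.0779). The part of liver RNA in the rise of plasma protein transcripts was not tested.

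Signaling genes of the IL-6 family showed rises at the receptor, the factor and the feedback inhibitor. Il6ra, the IL-6 receptor alpha chain, had 6.68, 6.31, 6.96 and 7.02 in the controls and 9.28, 9.38 and 10.07 in the moderate mice, a log2 fold change of 2.84 (standard error 0.23, adjusted p = 6.05e-06). Osmr, the oncostatin M receptor, rose by 1.28 and Stat3 by 1.24 (adjusted p = 1.76e-05). Socs3, the inhibitor that STAT3 induces against its own pathway, had 7.27, 7.77, 7.70 and 6.90 in the controls and 9.55, 9.56 and 9.63 in the moderate mice, so that the moderate values nearly coincided (log2 fold change 2.17, standard error 0.30, adjusted p = 0.000227). Over the list, 6 of 17 genes rose (35.3%, against 19.2% of all genes) and 3 fell (17.6%, against 22.6%). Cntfr, the receptor for CNTF, was among those that fell and was not detected on any moderate array (at least 1.40-fold lower, adjusted p = 0.00689). Without moderate mouse 5, 1 of the 17 fell.

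C/EBP and early response factors rose in 13 of 18 cases and 1 fell, with a median of 1.09. The fall was lost without control mouse 1, 2 or 3 or moderate mouse 9 or 12. Of the 18, 13 were detected on every control and moderate array, and 9 of those rose. The others entered the test through 1 group. Junb, a member of AP-1, had 6.29, 7.3, 6.48 and 6.62 in the controls and 9.29, 9.37 and 9.20 in the moderate mice (log2 fold change 2.61, standard error 0.28, adjusted p = 3.86e-05). Maff, a small Maf factor detected on 2 of the 4 control arrays, rose by 3.08. Fos rose by 2.44, Cebpd by 1.98 and Cebpb by 1.19. Egr1, an early gene of another family, had a log2 fold change of -0.36 (adjusted p = 0.493).

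Upstream stretches of 4 genes are shown because they carry the letters that STAT and C/EBP factors are known to bind, TTCNNNGAA and TTGCNCAA. The genes were picked after the search for having a match. Capitals mark the matches, all positions count back from the gene's start, and all come from RefSeq (GRCm38.p6). Fga (plus strand, chr3:83025903-83026041) has TTCCTGGAA at bases 234 to 226 and TTGAGCAA, the reverse of the C/EBP-type motif, at bases 135 to 128. Socs3 (minus strand, chr11:117969482-117969550) has TTCTTAGAA at bases 154 to 146 and Itih4 (plus strand, chr14:30886395-30886463) has TTCCGAGAA at bases 51 to 43. Lcn2 (minus strand, chr2:32387918-32387985) has TTGCTCAA at bases 216 to 209.
Fga: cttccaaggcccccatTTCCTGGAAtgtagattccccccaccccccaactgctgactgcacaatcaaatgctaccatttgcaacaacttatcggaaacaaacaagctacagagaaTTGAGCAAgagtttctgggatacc
Socs3: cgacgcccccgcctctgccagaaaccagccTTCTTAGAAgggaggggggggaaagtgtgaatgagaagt
Itih4: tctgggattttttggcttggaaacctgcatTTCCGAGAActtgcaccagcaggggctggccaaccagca
Lcn2: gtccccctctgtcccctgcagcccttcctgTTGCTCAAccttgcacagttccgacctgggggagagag
Both motifs were searched on both strands over 250 bases upstream, and no marked match overlapped another motif searched. TTCNNNGAA, which reads the same on either strand, was in 7.02% and TTGCNCAA in 2.61% of the 32851 promoters. Of the 16 acute phase genes that rose 14 had an entry, and TTCNNNGAA was upstream of 3 (Apcs, Fga and Itih4) and TTGCNCAA of 4 (Fga, Lcn2, Saa1 and Saa2, the last without a call when mouse 5 or 12 was left out, adjusted p = 0.0556 and 0.071). Of the 6 IL-6 family genes that rose, Socs3 alone held TTCNNNGAA.

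Genes that respond to glucocorticoids rose in 17 of 21 cases and 1 fell, with a median of 1.38. The fall was lost without control mouse 1 or 2 or moderate mouse 5. Fkbp5, which binds the glucocorticoid receptor complex and is a common readout of its activity, had 7.09, 7.51, 8.30 and 8.02 in the controls and 10.72, 10.41 and 11.16 in the moderate mice (log2 fold change 3.03, standard error 0.30, adjusted p = 2.81e-05). Hif3a, a hypoxia-inducible factor subunit, had 5.14 to 5.46 in the controls and 7.97, 7.39 and 8.21 in the moderate mice. It rose by 2.60, with an adjusted p of 5.5e-06. Klf15, a factor that turns on amino acid breakdown, rose by 1.24, Zbtb16, or PLZF, by 1.38 and Errfi1, an inhibitor of the EGF receptor, by 1.78. The list shares Pdk4 with the FOXO list, Ddit4 with the mTORC1 list, Lcn2 with the acute phase list and Mt1 and Mt2 with the metal list.

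Metal handling moved in both directions. Of 16 genes for metallothioneins, zinc and iron, 7 rose (43.8%, against 19.2% of all genes) and 5 fell (31.2%, against 22.6%). The list median was -0.11. Mt2, a metallothionein that binds zinc and copper, had 5.78, 7.12, 8.55 and 5.57 in the controls and 9.98, 9.16 and 9.82 in the moderate mice, with controls 2 and 3 again the higher ones (log2 fold change 2.89, adjusted p = 0.00127). Slc30a2, a zinc exporter into vesicles, rose by 1.39. Tfrc, the transferrin receptor that takes up iron, had 9.90, 10.08, 9.48 and 10.02 in the controls and 6.63, 7.26 and 6.97 in the moderate mice. It fell 7.56-fold (log2 fold change -2.92, standard error 0.30, adjusted p = 3.48e-05). Ftl1, the ferritin light chain that stores iron, rose by 0.82, and Slc40a1, or ferroportin, which exports it, by 0.85.

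**Figure D2:**
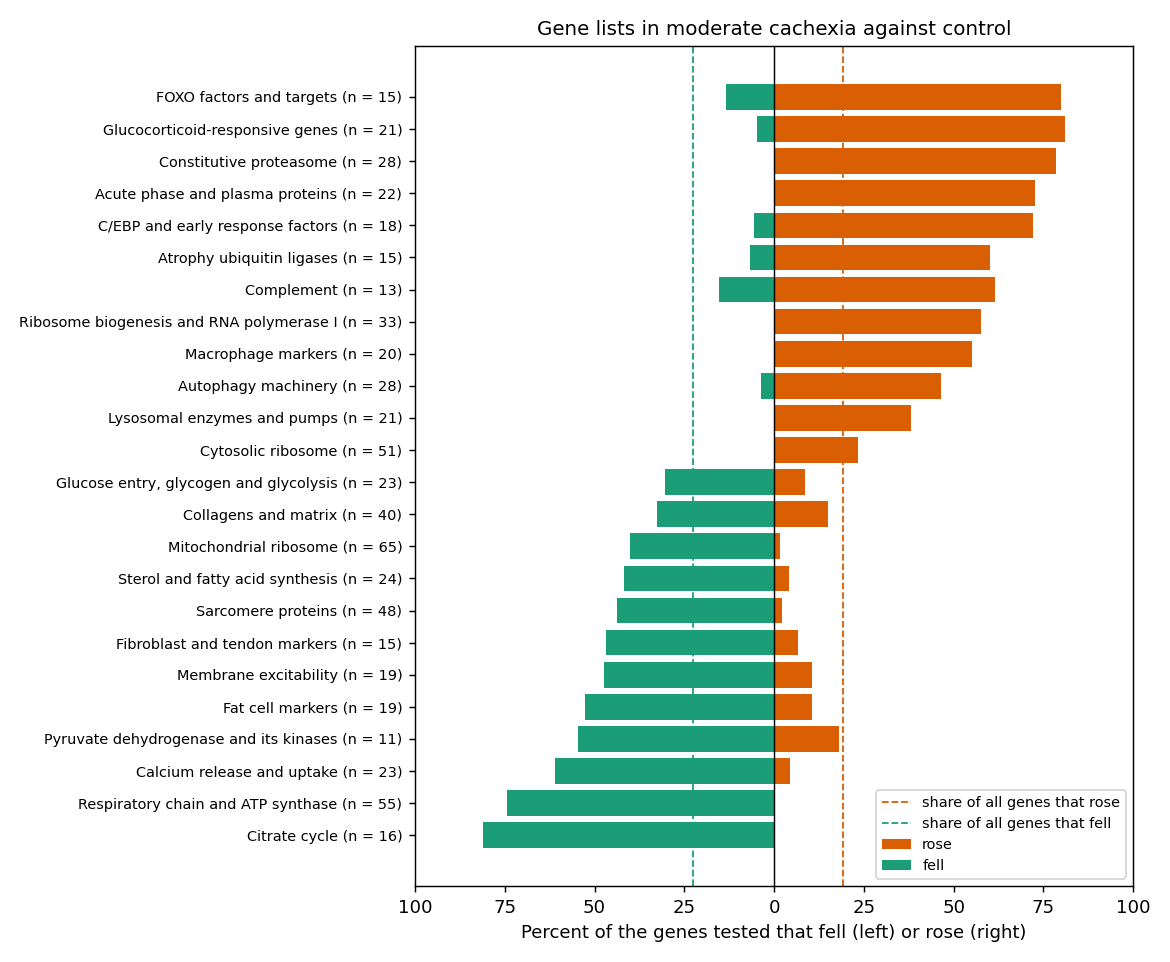
Percent of the tested genes of 24 gene lists that rose (orange, right) or fell (green, left) in moderate cachexia against control at an adjusted p under 0.05, n in brackets being the number of genes tested. Dashed lines give the shares over all 9925 genes, 19.2% that rose and 22.6% that fell. In the glucocorticoid, FOXO and proteasome lists most genes rose, and in the citrate cycle and respiratory chain most fell.

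The switch between glucose and fat as fuel sits at pyruvate dehydrogenase, which lets pyruvate enter the citrate cycle. Pdk4, the kinase that shuts the complex off, had 11.44, 12.17, 10.89 and 11.73 in the controls and 14.53, 14.46 and 14.35 in the moderate mice (log2 fold change 2.89, standard error 0.23, adjusted p = 6.05e-06). Dlat, the complex's acetyltransferase subunit, had 10.05, 10.20, 10.10 and 10.10 in the controls and 7.79, 8.86 and 8.18 in the moderate mice. It fell by 1.84 (adjusted p = 0.000229), and Pdp1, the phosphatase that turns the complex back on, fell by 1.60. Of 11 genes of the complex and its regulators 2 rose and 6 fell, or 3 fell without moderate mouse 12. In glycolysis and glycogen metabolism 2 of 23 rose (8.7%, against 19.2% of all genes) and 7 fell (30.4%, against 22.6%). The falls were 2 without mouse 5, 3 without mouse 12 or control mouse 2 and 4 without control mouse 1 or 4. Pkm, pyruvate kinase, fell by 1.13. Fatty acid uptake and oxidation was even, with 5 of 29 up and 5 down (17.2% each, below the shares over all genes). Its falls were 1 without mouse 5 or 12, and 2 or 3 without any 1 of the controls. Its largest rises were Acot1 (3.25) and Acot2 (2.33), thioesterases that free fatty acids from CoA in cytosol and mitochondria, and Ucp3, an uncoupling protein homolog of muscle mitochondria, rose by 1.64.

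The citrate cycle and the respiratory chain fell. In the cycle 13 of 16 enzymes fell and none rose, with a median of -0.68, and 8 fell without moderate mouse 5. Idh3a, a subunit of NAD-dependent isocitrate dehydrogenase, had 12.46, 12.03, 12.38 and 12.43 in the controls and 10.88, 11.86 and 11.04 in the moderate mice. Its fall of 1.06 had an adjusted p of 0.00997, which was 0.0596 without mouse 5. Sdhd, a membrane subunit of succinate dehydrogenase, fell by 1.0 and Cs, citrate synthase, by 0.65. Among 55 subunits of the respiratory chain and ATP synthase 41 fell and none rose, with a median of -0.47 that was -0.58, -0.26 and -0.55 in mice 5, 9 and 12. Cyc1, cytochrome c1 of complex III, fell by 0.98, Ndufb9 of complex I by 0.89, Cox7a2 of complex IV by 0.89 and Atp5a1 of ATP synthase by 0.83. Without mouse 5, 27 of the 55 fell. Of 65 mitochondrial ribosomal proteins 26 fell and 1 rose, and 10 fell without mouse 5, 13 without mouse 12 and 15 without control mouse 3.

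Regulators of mitochondrial genes split. Ppargc1b, the coactivator PGC-1 beta, had 9.47, 9.31, 9.31 and 9.09 in the controls and 6.57, 7.39 and 6.55 in the moderate mice. It fell 5.49-fold (log2 fold change -2.46, standard error 0.20, adjusted p = 6.05e-06). Ppargc1a, or PGC-1 alpha, rose by 0.69 (adjusted p = 0.0203), a call that was lost without control mouse 3, moderate mouse 5 or moderate mouse 12 (adjusted p = 0.0541, 0.0825 and 0.0834). The receptors Esrra and Esrrg, which both coactivators bind, fell by 1.17 and 1.24, and Perm1, a muscle regulator downstream of them, by 1.71. Tfam, which packs and transcribes mitochondrial DNA, fell by 0.71. Over the list of 18, 6 rose (33.3%, against 19.2% of all genes) and 7 fell (38.9%, against 22.6%).

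Nmrk2, a muscle kinase that makes NAD from nicotinamide riboside, fell strongly. It had 11.06, 11.27, 10.78 and 10.64 in the controls and 6.64, 7.86 and 7.10 in the moderate mice, a 13.4-fold fall (log2 fold change -3.74, standard error 0.25, adjusted p = 1.76e-06). Of 13 genes of NAD synthesis 2 rose (15.4%, against 19.2% of all genes) and 4 fell (30.8%, against 22.6%). Their median was -0.23 and 7 did not pass. The falls were 3 without moderate mouse 5, and 1 rose without control mouse 1, 3 or 4 or moderate mouse 12. In adenine nucleotide metabolism Ak1, adenylate kinase, fell by 1.63, Prkag3, the muscle gamma subunit of AMP-activated kinase, fell by 2.31 and Ampd3, an AMP deaminase known to rise in atrophy, rose by 2.07. Of 22 genes of branched-chain amino acid breakdown and amino acid transport 6 rose (27.3%) and 5 fell (22.7%), close to the shares over all genes, with a median of -0.05. The falls were 2 without moderate mouse 5 or 12 and 3 without control mouse 2 or 3. Among the rises, Slc43a1, or LAT3, rose by 2.88, Slc7a2, a transporter of arginine and lysine, by 2.39 and Slc7a8, or LAT2, by 2.07. Odc1, the enzyme that starts polyamine synthesis, rose by 1.27, while Amd2, of the S-adenosylmethionine decarboxylase family, fell by 1.39.

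Ribosome biogenesis genes rose in the same mice. Of 33 genes for RNA polymerase I and ribosome assembly 19 rose and none fell (median 0.55), and 12 rose without moderate mouse 5. Taf1d, a subunit of the polymerase I factor SL1 whose transcript hosts small nucleolar RNAs, had 6.82, 7.39, 7.14 and 7.33 in the controls and 9.94, 8.73 and 9.63 in the moderate mice (log2 fold change 2.26, adjusted p = 0.000961). Nop14 and Wdr43, nucleolar factors for the small subunit, rose by 1.28 and 1.22. Snhg12, a small nucleolar RNA host gene, had 7.35, 7.29, 7.55 and 7.71 in the controls and 11.19, 9.92 and 10.60 in the moderate mice, a rise of 3.09 (adjusted p = 6.05e-06). Cytosolic ribosomal proteins shifted little, with 12 of 51 up (23.5%, against 19.2% of all genes) and none down. Their median was 0.17, with 4 up without mouse 5 and 5 without mouse 12. Rps6, a small-subunit protein, rose by 0.86.

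Genes of the contractile apparatus fell more often than they rose. Of 48 sarcomere genes 1 rose (3 without mouse 9) and 21 fell, with a median of -0.21. With any control or moderate mouse left out, the falls ran from 15 (without mouse 5) to 18 (without mouse 9). Ky, a Z-disc protein whose loss causes kyphoscoliosis in mice, had 13.22, 12.86, 12.71 and 12.97 in the controls and 8.63, 10.62 and 9.21 in the moderate mice, with mouse 9 the nearest to the controls (log2 fold change -3.45, standard error 0.43, adjusted p = 0.00012). Actc1, the cardiac actin that fetal and regenerating muscle also uses, fell by 2.51. Isoforms of slow, oxidative fibers were then gathered after their values had been seen, so that they form a description without a test. All 10 slow isoforms fell, with a median of -1.45 (range -1.98 to -0.98), and of 12 fast isoforms 2 fell and none rose (median -0.07). Myl3, the slow essential light chain, had 13.41, 13.09, 12.88 and 12.24 in the controls and 11.50, 9.50 and 11.77 in the moderate mice. Here mouse 9 was the lowest, and the controls were spread too (log2 fold change -1.98, standard error 0.44, adjusted p = 0.00376). Tnnt1 and Tnnc1, slow troponins, fell by 1.67 and 1.85. Tnni1, the slow troponin I, fell by 1.53, or by 0.85 without mouse 9 (adjusted p = 0.019 and 0.0765), and its call was also lost without control mouse 1 or 2 (0.0511 and 0.0548). Myh7, the slow myosin heavy chain, had an adjusted p of 0.0342, which rose to 0.165 without mouse 9, 0.0833 without mouse 5, and 0.0965 and 0.0845 without controls 1 and 2. Medians of the slow isoforms against the control mean were -1.24, -2.63 and -0.71 in mice 5, 9 and 12, and 0.47, 0.32, -0.07 and -0.62 in controls 1 to 4. Myh4, the fast IIb myosin heavy chain, had 14.63, 14.56, 14.58 and 14.44 in the controls and 14.46, 14.51 and 14.42 in the moderate mice, a log2 fold change of -0.09 (adjusted p = 0.462). The sources used here do not give the portion of the muscle taken from each mouse, and its part in the slow isoforms was not tested.

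**Figure D3:**
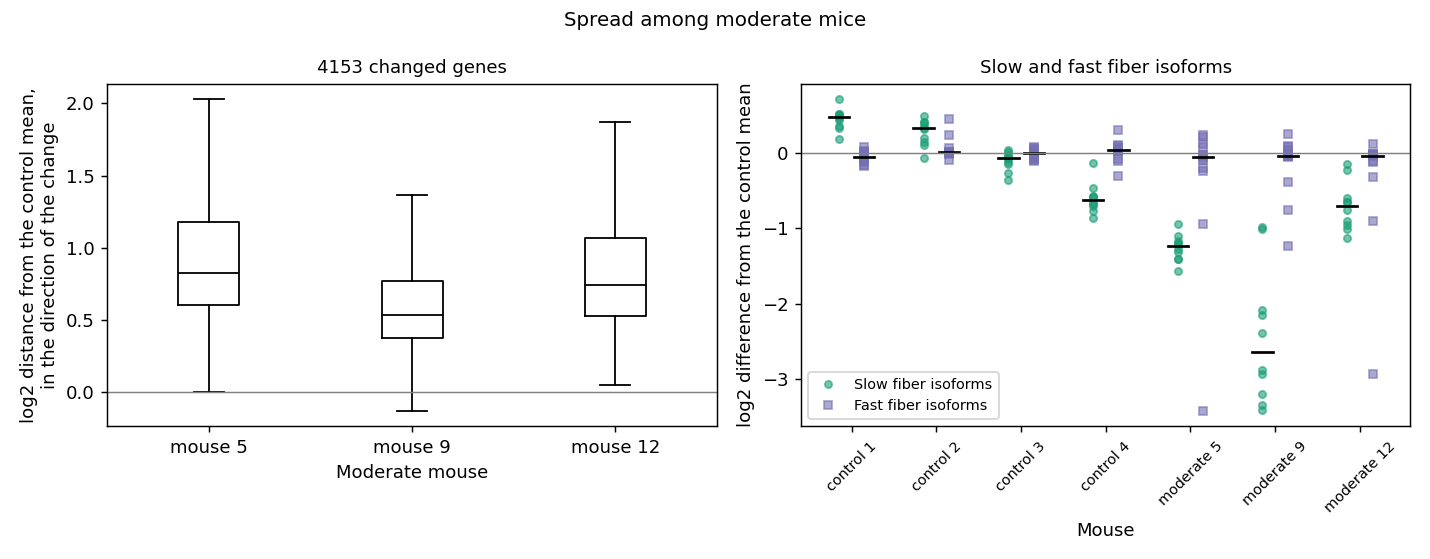
Left, log2 distance of each moderate mouse from the control mean in the direction of the group's change over the 4153 changed genes (line, median; box, quartiles; whiskers, 1.5 times the box, points beyond them not drawn). Right, log2 difference from the control mean of 10 slow (circles) and 12 fast fiber isoforms (squares) in each control and moderate mouse, black bars being medians. Mouse 9 is the nearest to the controls on the left and the farthest below them in the slow isoforms on the right.

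Genes that carry the electrical signal and calcium fell. In calcium release and uptake 14 of 23 fell and 1 rose, with a median of -0.74. Casq1, the calcium store protein of fast fibers, had 10.96, 10.97, 10.96 and 11.36 in the controls and 7.65, 9.83 and 8.13 in the moderate mice (log2 fold change -2.53, standard error 0.52, adjusted p = 0.00267). Jph2, which ties the sarcoplasmic reticulum to the outer membrane, fell by 2.25, and Pln, the brake of the slow calcium pump, was at least 1.82-fold lower, being undetected on all moderate arrays. In membrane excitability 9 of 19 fell and 2 rose (1 rose without mouse 5). Aqp4, the water channel of fast fiber membranes, had 8.93, 8.72, 8.69 and 8.93 in the controls and 4.60, 6.23 and 5.14 in the moderate mice, and was detected on 2 of the 3 moderate arrays (log2 fold change -3.50, standard error 0.34, adjusted p = 2.75e-05). Kcng4, a modifier of potassium channels, fell by 2.28 and Clcn1, the chloride channel that steadies the resting membrane, by 1.40. At the neuromuscular junction 4 of 19 genes fell (21.1%, against 22.6% of all genes) and 1, Myog, rose, a call lost without any 1 of the controls or moderate mouse 5 or 12. Chrne, the adult epsilon subunit of the acetylcholine receptor, fell by 1.05 and was the only fall among the 15 genes detected on every control and moderate array. Ache, Ntrk3 and Hdac9 were the other falls. Ache, acetylcholinesterase, was detected on 1 of the 3 moderate arrays, with 5.82, 6.26, 5.8 and 6.16 in the controls and 4.3, 4.93 and 4.65 in the moderate mice, so that the size of its fall is not fixed by these arrays (log2 fold change -1.38, or -3.26 with no normexp step).

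Some regulators of muscle identity and the clock moved as well. Myod1, a master factor of the muscle lineage, had 7.19, 7.46, 7.59 and 7.19 in the controls and 5.53, 5.85 and 5.12 in the moderate mice (log2 fold change -1.86, standard error 0.35, adjusted p = 0.00145). Mef2c, a partner of the myogenic factors, fell by 1.94. Of 28 myogenic and growth regulators 9 rose (32.1%, against 19.2% of all genes) and 7 fell. The share that fell was close to the 22.6% of all genes, with almost no shift of the list median. Without moderate mouse 5, 6 rose and 3 fell, and 4 fell without moderate mouse 12 or control mouse 4. Among 13 clock genes 5 rose (38.5%) and 3 fell (23.1%), or 3 and 1 without mouse 5. Dbp, an output factor of the clock, had 12.69, 12.48, 12.49 and 12.57 in the controls and 9.51, 10.46 and 9.67 in the moderate mice, a fall of 2.68 (adjusted p = 0.000265), and Rora, an activator of the clock, rose by 1.91. The sources used here do not give the hour of death of each mouse, and its part was not tested.

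Transcripts of other cell types moved with the condition. Of 19 fat cell markers 10 fell and 2 rose, with a median of -1.31, and their summed linear signal was 51411 to 62379 in the controls and 48573 to 52999 in the moderate mice. Ucp1, which uncouples respiration in brown fat mitochondria, had 8.97, 10.08, 10.32 and 8.87 in the controls and 4.49, 5.12 and 6.02 in the moderate mice (log2 fold change -4.35, standard error 0.97, adjusted p = 0.00398). It was detected on 2 of the 3 moderate arrays, and every control lay above every moderate mouse. Adipoq, adiponectin, fell by 1.31, Scd1, a desaturase of fat synthesis, by 2.69, and Plin1, which coats the lipid droplet of fat cells, was at least 2.72-fold lower. Of 11 brown fat markers 5 fell and 1 rose, or 2 fell without mouse 5 or 12 and 3 without control mouse 3. The rise, that of Ppargc1a, was lost without control mouse 3 or moderate mouse 5 or 12. Only 6 of the 11 were detected on every control and moderate array, and 2 of the 6 fell. Of 24 genes of sterol and fatty acid synthesis 10 fell and 1 rose (6 fell without mouse 5). Of these 24, 17 were detected on every control and moderate array, and 5 of the 17 fell, so that the other 5 falls were of genes that entered through the controls alone. Whether these falls came from fat lying in the dissected muscle was not tested.

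Macrophage markers rose in 11 of 20 cases and none fell, with a summed linear signal of 7448 to 8119 in the controls and 11603 to 14241 in the moderate mice. Cd163, a scavenger receptor of resident macrophages, had 7.90, 7.97, 8.04 and 7.97 in the controls and 9.70, 9.23 and 9.78 in the moderate mice (log2 fold change 1.60, standard error 0.24, adjusted p = 0.000422). C1qb, a chain of complement C1q that macrophages make, rose by 1.22. Of the 20, 6 rose without mouse 5, 7 without control mouse 1 and 17 without severe mouse 11, which enters the shared estimate of the spread. C4b, a complement component, rose by 2.54, and 8 of 13 complement genes rose and 2, Cd55 and Cd59a, fell (0 fell without mouse 5, and 1 without control mouse 1, 2 or 4 or moderate mouse 9). Of 19 neutrophil markers 7 were tested, of which 4 rose (57.1%, against 19.2% of all genes), or 2 without mouse 5. Only 4 of the 7 were detected on every control and moderate array, and 2 of those rose. Control and moderate values did not overlap for 2 of the 7, against 48.7% of all genes. A further 11 on the array, Mpo among them, did not pass the detection rule. Of 12 lymphocyte markers on the array, 1 passed the detection rule. That marker, Cd8b1 of cytotoxic T cells, fell by 1.16. Its linear signal was 780 to 1087 in the controls and 360 to 472 in the moderate mice. Of 15 epithelial genes that the tumor could carry, 11 did not pass the detection rule, Epcam, Cdh1, Krt18 and Krt19 among them. Of the 4 tested, 2 were detected on every control and moderate array, and 1 of those rose. The 4 summed to linear signals of 262 to 321 in the controls and 344 to 466 in the moderate mice. Krt8 and Lgals4 rose and none fell. Leaving out any 1 control or moderate mouse left 0 or 1 of these rises, with 0 without control mouse 2 or 3. The part of tumor cells in these values was not tested. Interferon-responsive genes went the other way, with 9 of 22 down and none up, Ifit3 (-1.40) and Gbp3 (-1.31) among them. With any control or moderate mouse left out, 6 to 8 of them fell, 6 being without control mouse 3.

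Matrix genes moved in both directions. Of 40 collagen and matrix genes 13 fell (32.5%, against 22.6% of all genes) and 6 rose (15.0%, against 19.2%), or 8 fell without mouse 5. Col1a1, a chain of type I collagen, had 8.40, 9.36, 8.92 and 8.92 in the controls and 5.97, 7.84 and 6.16 in the moderate mice (log2 fold change -2.24, standard error 0.50, adjusted p = 0.00401), and Col6a1 of the type VI collagen around fibers fell by 1.69. Mmp3, or stromelysin, rose by 2.68, Mmp14, a membrane-bound protease, by 1.69 and Lox, which crosslinks collagen, by 1.98. Tendon genes fell in the same mice. Chad, chondroadherin, had 9.43, 9.0, 9.32 and 9.16 in the controls and 5.78, 8.03 and 5.76 in the moderate mice, and 7 of 15 fibroblast and tendon markers fell with 1 rise (4 fell without mouse 12). Their summed linear signal was 8558 to 9698 in the controls and 5183 to 8854 in the moderate mice, and its part in the fall of collagens was not tested.

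Some genes were detected on all arrays of 1 group and none of the other. There were 46 detected on every moderate and no control array, and 125 the other way round. Beside Fga, Itih3 and Hpx, the former included Sik1, a salt-inducible kinase (at least 6.34-fold higher), Doc2b, a calcium sensor of vesicle fusion (at least 5.37-fold) and Scgb3a1, a secretoglobin (at least 3.70-fold). The latter included Mmd2 (at least 4.09-fold lower), Nnat, or neuronatin, a membrane proteolipid (at least 3.74-fold), and Pdxp, which removes phosphate from vitamin B6 (at least 2.59-fold). Nnat lay at 6.74, 6.82, 7.11 and 6.58 in the controls and 4.72, 4.82 and 4.46 in the moderate mice, so both groups were narrow.

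The 3 moderate mice did not stand at equal distance from the controls. Over the 4153 changed genes the median distance from the control mean, in the direction of the change, was 0.83 for mouse 5, 0.54 for mouse 9 and 0.75 for mouse 12 on the log2 scale. Mouse 9 was the nearest to the controls in 2885 genes (69.5%), mouse 12 in 848 and mouse 5 in 420. These genes were called with the same mice, so the figures describe the spread and test nothing. List medians did not all follow this order. They were 0.70, 0.72 and 0.63 in mice 5, 9 and 12 for the ligases, 1.72, 1.13 and 2.05 for the acute phase list and -0.75, -0.38 and -0.82 for the citrate cycle, so that mouse 9 was nearest the controls in the last 2 lists while mouse 12 was the farthest. Without mouse 5, 2580 genes changed, 1205 up and 1375 down. The sources used here give no body weight per mouse.

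A comparison of severe with moderate muscle asked which of these levels differ at the later stage. It shares the moderate arrays with the comparison above. Of the 9925 genes, 312 (3.14%) were higher and 386 (3.89%) lower in severe than in moderate mice at an adjusted p under 0.05. Among the genes that rose in moderate cachexia 319 were lower and 2 higher in severe, and among those that fell 204 were higher and 11 lower. Since the moderate values enter both comparisons with opposite sign, such counterchange is partly built in. Of the FOXO list 10 of 15 genes were lower in severe and 1 higher. Sesn1 had 10.46, 11.27, 10.97 and 10.22 in severe mice 11, 13, 15 and 16, against 12.64 to 13.50 in moderate mice, a difference of -2.39 (adjusted p = 0.000407). Ulk1 (8.64, 8.33, 9.25 and 8.66) lay in the control range of 8.41 to 8.90 apart from mice 13 and 15, and differed from moderate by -2.02 (adjusted p = 0.000407). Trim63 stayed above the controls in every severe mouse, at 11.07 to 12.62, and was 1.77 below moderate on the log2 scale. Snhg12 had the largest such difference among the genes with values here, at -2.65 (adjusted p = 0.000211).

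No difference between the stages passed in several other groups. None of the 28 proteasome subunits, 22 acute phase genes, 17 IL-6 family genes, 16 citrate cycle enzymes or 51 cytosolic ribosomal proteins differed between the stages at this threshold. Psmd8 was 0.05 higher in severe (adjusted p = 0.939) and Stat3 0.21 higher (adjusted p = 0.294). A difference that did not pass does not show equal levels. Fga had 4.78, 4.65, 8.21 and 5.67 in severe mice 11, 13, 15 and 16, and differed from moderate by -2.12 (adjusted p = 0.0667). Fgg (-1.35) and Hpx (-1.38) were likewise high in severe mouse 15 alone, while Saa1 was 0.14 higher in severe. The acute phase median against control was 1.70 in moderate and 0.75 in severe mice, and the proteasome median 0.65 and 0.69. Among genes that had fallen, Myod1 turned from 5.12 to 5.85 in moderate to 7.02, 8.75, 7.98 and 8.80 in severe mice, a difference of 2.64 (adjusted p = 0.00136). Synpo2l, a cytoskeletal protein of the sarcomere, was 2.10 higher in severe, Mpp3, a membrane scaffold protein, 1.97, Hspb3, a small heat shock protein of muscle, 1.55 and Ppargc1b 1.31. The count of 698 genes that differed became 193 without moderate mouse 5, 386 without mouse 12 and 278 without severe mouse 16, and it was 637 without severe mouse 11. Severe mouse 11 stood apart in fat genes, with Scd1 at 13.33 against 9.88 to 10.37 in the other severe mice and Plin1 at 6.39 against 4.90 to 5.02.

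**Figure D4:**
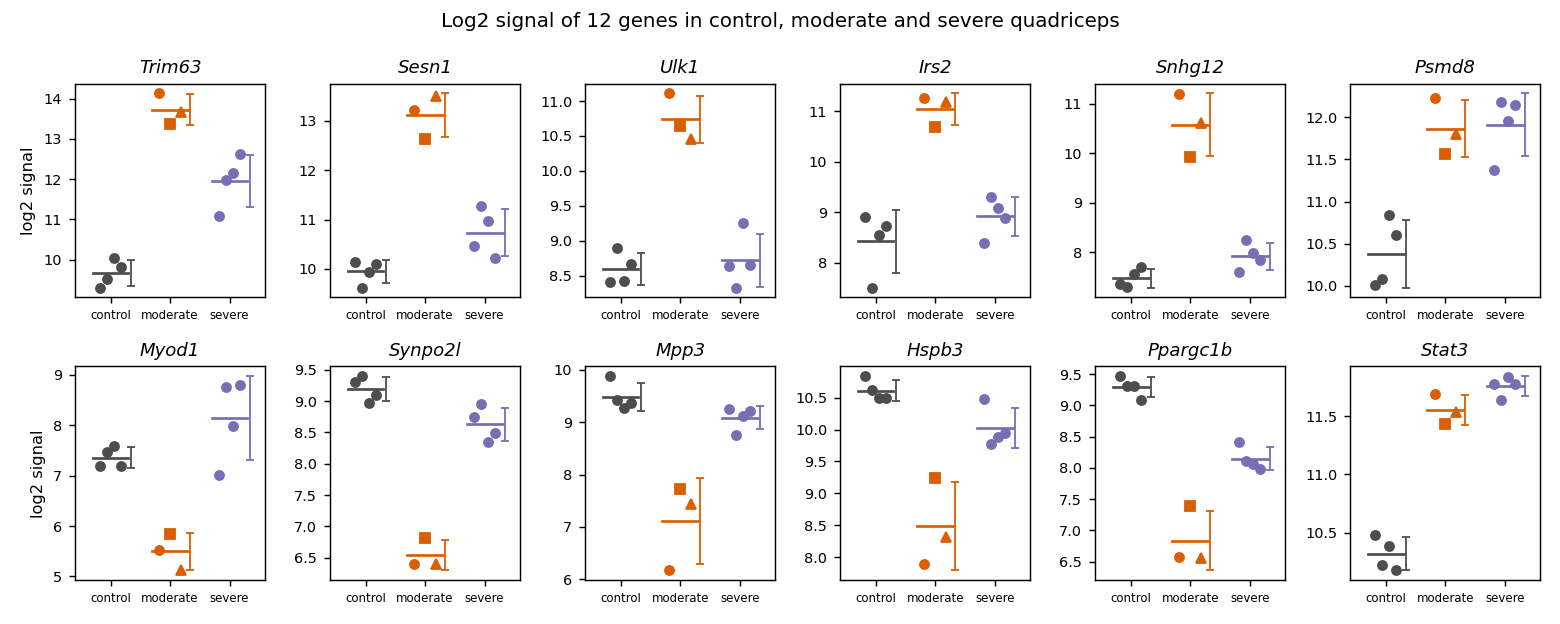
Log2 signal (y axes, 1 scale per gene) of 12 genes in control (grey, n = 4), moderate (orange, n = 3) and severe quadriceps (purple, n = 4), with the mean as a line and the SD as a bar. Trim63, Sesn1, Ulk1, Irs2 and Snhg12 are lower in severe than in moderate mice, Myod1, Synpo2l, Mpp3, Hspb3 and Ppargc1b are higher, and Psmd8 and Stat3 show no difference that passed.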

How the data were processed

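RNA from 1 quadriceps per mouse was hybridised to Illumina MouseWG-6 v2.0 arrays (11 in all), and signals were made with BeadStudio. The deposited signal intensity values were linear, background-subtracted and quantile-normalized across the arrays by the authors (28.5% lay below 0), each with a deposited detection p-value against the array's negative controls. A second deposited table held the ratio of each signal, floored at 1, to the median of the controls, which the authors made in GeneSpring. It was used as an alternative only. Its columns carry the replicate numbers of the labels, whereas those of the signal table carry mouse numbers that are not tied to them.

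Signals were corrected with normexp (offset 16), quantile-normalized and put on the log2 scale with neqc of limma 3.58.1 in R 4.3.3, on top of the correction already made. The brightest probe stood for each gene. Symbols came from the platform annotation: 1 symbol was paired with 34885 probes, several with 18 and none with 10378, and only the first kind entered the counts of genes. Of 3957 genes with several tested probes, 30 had probes called in opposite directions. One model with 3 group means over all 11 arrays was fitted with lmFit and eBayes (intensity trend), with two-sided tests and Benjamini-Hochberg adjustment over 10134 genes, at a threshold of 0.05. The script was tested on simulated data. Where a gene was detected on no array of a group, "at least" folds set the brighter group's mean against a floor, the lowest signal called detected on each array of the dimmer group or the gene's own signal there if higher. Precision is limited by the number of arrays. Nothing states that mice of a group were handled independently beyond being separate animals, and arrays were placed on chips at random, with the chip of each array not given in the sources used here, so that no chip could be entered as a block. The sources differ on the supplier of the mice and the site of injection, which are therefore not stated.

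Genes and gene lists were chosen with earlier results of these data known. Named genes were taken from the 12 largest rises and falls whose groups did not overlap, up to 4 genes per list with the smallest adjusted p, the 6 largest stage differences in each direction, up to 6 genes in each direction detected in 1 group alone, and the genes whose sequence is shown. Others were chosen after their values were seen. Alternatives changed the background step, scaling, detection filter, probe rule, arrays fitted, test and replicate block, and left out each mouse in turn.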

Additional observations from a re-analysis of the deposited data

Results flagged for a closer look

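Of the 151 genes with values in the text, 43 differed between severe and moderate cachexia in limma's contrast of the stages at an adjusted p under 0.05. The values below are severe minus moderate on the log2 scale. Among genes that had risen in moderate cachexia, those lower in severe mice were Trim63 (-1.77), Ddit4 (-2.16), Depp1 (-2.59), Fbxo32 (-1.16), Fbxo30 (-1.61), Klhl38 (-1.14), Foxo1 (-0.74), Foxo3 (-0.92), Sesn1 (-2.39), Gadd45a (-0.96), Txnip (-1.01), Gabarapl1 (-1.76), Ulk1 (-2.02), Ctsl (-1.20), Ppp1r15a (-1.15), Chac1 (-1.45) and Irs2 (-2.13). Further genes of this kind were Junb (-1.13), Maff (-2.09), Cebpd (-0.63), Cebpb (-0.54), Hif3a (-0.99), Klf15 (-1.05), Pdk4 (-1.51), Slc40a1 (-1.31), Ucp3 (-1.33), Ppargc1a (-1.04), Slc43a1 (-2.08), Slc7a2 (-1.20), Slc7a8 (-1.06), Snhg12 (-2.65), Lox (-0.75) and Sik1 (-1.61). Genes that had fallen and were higher in severe mice were Nmrk2 (0.89), Lrrc38 (1.81), Bcl6 (1.12), Tfrc (1.29), Ppargc1b (1.31), Myod1 (2.64), Synpo2l (2.10), Mpp3 (1.97) and Hspb3 (1.55). Actc1, which had fell in moderate cachexia, differed by -1.32. The moderate arrays enter both comparisons.

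In 16 of 302 groups of 4 mice checked, 1 mouse lay apart from the other 3 by Dixon's test, which chance alone gives in about 5% of groups. Control mouse 1 stood apart in Igfbp5 at 13.14 (others 12.69 to 12.76) and C1qb at 7.34 (others 7.70 to 7.77). Control mouse 2 stood apart in Fga at 4.3 (others 4.51 to 4.52), Pkm at 13.94 (others 13.41 to 13.44), Tfam at 9.91 (others 9.57 to 9.61) and Ak1 at 12.95 (others 12.63 to 12.69). Control mouse 3 stood apart in Scgb3a1 at 4.81 (others 4.39 to 4.44). Control mouse 4 stood apart in Bnip3 at 4.70 (others 5.08 to 5.11), Ahsg at 5.82 (others 4.35 to 4.53) and Casq1 at 11.36 (others 10.96 to 10.97). Severe mouse 11 stood apart in Sqstm1 at 11.59 (others 12.61 to 12.79), Acot2 at 5.93 (others 7.86 to 8.22), Scd1 at 13.33 (others 9.88 to 10.37), Plin1 at 6.39 (others 4.90 to 5.02) and Pdxp at 5.72 (others 4.72 to 4.88). Severe mouse 16 stood apart in Tfam at 8.93 (others 9.12 to 9.14). Values are log2 signals. Groups of 3 mice were not checked.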

How the results depend on the processing

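With each mouse left out in turn, the count of genes changed in moderate cachexia (4153) ran from 2580 without moderate mouse 5 to 4567 without severe mouse 11 (rises 1205 to 2116, falls 1375 to 2451). Genes that differed between the stages (698) ran from 193 (62 higher and 131 lower in severe) without moderate mouse 5 to 655 without moderate mouse 9 (363 lower in severe) and 637 without severe mouse 11 (302 higher), with 386 (182 and 204) without moderate mouse 12 and 278 (102 and 176) without severe mouse 16. That count was 409 (184 and 225) with no detection filter, 204 (69 and 135) with only the arrays compared, and 7 (5 and 2) with the methods' t-test after adjustment. The methods' t-test gave 3262 changed genes against 4153 in limma. Falls of at least 2-fold (488) became 787 with no normexp step, 300 with an offset of 50 and 779 on the deposited ratios. The replicate numbers did not pair the mice (correlations of same-numbered deviations -0.03, -0.04 and 0.06). On the deposited ratios with a replicate block 3298 genes changed, 751 fell at least 2-fold, and 239 (116 and 123) differed between the stages. Rises made up 44.9% to 47.6% of the calls under the settings tried. Of 151 named genes none changed direction, and 24 lost a call with the replicate block, 15 with the methods' t-test and 8 on the deposited ratios. The causes were not tested. Dim genes near background have compressed folds.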
